A study of Mus musculus with 65 samples.

Results

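The zinc finger protein genes were the genes of the array whose platform annotation gave a single symbol made of Zfp and a number. They were 68 genes on 76 features, out of 4209 genes with a single symbol and 8448 features on the filter. The 2 features of a gene were averaged, which concerned 8 of the 68 genes. A further 6 features whose annotation joined a numbered Zfp symbol with another symbol were left out. All 68 genes were matched to the RefSeq gene table by gene ID with their symbols unchanged, and 67 of them are protein coding there. Zfp783 is listed as a long non-coding RNA.

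A zinc finger is a short protein fold held together by a zinc ion, and arrays of such fingers let a protein read a particular DNA or RNA sequence. Many of these genes encode a KRAB domain beside the fingers, which recruits the co-repressor Trim28 and the histone methyltransferase Setdb1 to silence chromatin. The family is large, is often arranged in tandem clusters, and also holds proteins that act on RNA, ribosomes or protein modification.

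Expression was measured in the spinal cord of 65 C57BL/6 mice of both sexes, with 1 nylon cDNA filter for each mouse. The groups were 10 juvenile mice of 17 to 44 days on the ad libitum (AL) diet, 8 mice on caloric restriction (CR) and 10 AL mice of 6 months, 10 CR and 10 AL mice of 16 months, and 7 CR and 10 AL mice of 24 months. In days, the CR mice of 24 months were 673 to 743 old and the AL mice of 24 months 704 to 743. All 3 CR males of 24 months were 673 days old, younger than every AL mouse of 24 months. Comparisons of CR with AL mice at 24 months are therefore not matched in age among males. The CR mice ate regular feed until early adult life, were stepped down and then received 60% of the feed, in fortified form, until death. The AL mice had free access to feed throughout, and the labels name no transgene or drug. Values are Z scores, in which 0 marks the average feature of an array and 1 unit is the SD over its features, and a difference is printed in these Z units. They place a feature among the others on its filter, so a shift common to most transcripts would not be seen, and in whole tissue fewer cells of a type cannot be told apart from less RNA per cell.

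The tissue was checked against its marker genes. Nefl, a neurofilament subunit of neurons, scored 0.983 on average (percentile 85.3 of all rows) and Uchl1, also of neurons, scored 0.533. The astrocyte genes Cst3 and Slc1a3 scored 0.572 and -0.584, and Gsn (0.258) was the single oligodendrocyte gene of the list that was measured. Among markers of other tissues, Hba-a2 and Hba-a1 of blood scored 1.07 and 0.766 and Mylpf of muscle 0.303. Alas2 of blood and Pmp22 of Schwann cells scored -1.09 and -1.21. The scores of these few markers do not by themselves identify the tissue. The mean of 4 microglial genes (C1qa, C1qb, C1qc and Ctsd) ran from 0.125 to 0.316 in AL mice of 24 months, against -0.514 to 0.0888 in AL mice of 6 months (array 33 included), and the 3 blood genes from 0.0211 to 0.596 against -0.413 to 0.555. Their part in the comparisons of the zinc finger protein genes was not tested. Arrays 31, 32 and 33 (all of 6 months, 2 on CR and 1 on the AL diet) stood apart, with 16, 15 and 36 of the 68 genes more than 0.5 from their mean over the other arrays, and 13.0%, 20.1% and 46.1% of all rows. The remaining 62 arrays fell into a set of 41 and a set of 21 by the first principal component of all features, which held 36.0% of the variance and which the labels do not name. The second set comprised arrays 22 to 30, 34 to 43, 66 and 67. It held 6 of the 10 AL mice of 24 months and 1 of the 10 AL mice of 6 months, but 0 CR mice of 6 months. Comparisons with CR mice of 6 months can therefore be made within the first set only. For many differences, values within the sets or with the set as a term are given as well. Arrays 31 to 33 belong to neither set, and every fit with the set as a term leaves them out as well. The array numbers of the titles repeat the 7 groups in 5 cycles, which were tried as a block.

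The genes lay on 18 chromosomes, with 10 on chromosome 17 and 6 each on chromosomes 6, 7 and 13. Counting protein-coding genes along the RefSeq map, 7 pairs of the genes had at most 3 other genes between them. Zfp398, Zfp212 and Zfp783 were such neighbours on chromosome 6, Zfp882 and Zfp961 on chromosome 8, Zfp445 and Zfp105 on chromosome 9, and Zfp58 and Zfp729a on chromosome 13. On chromosome 17 the pairs were Zfp952 with Zfp763 and Zfp955b with Zfp101.

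Promoters, taken from RefSeq on GRCm38.p6 as 250 bases before and 50 after the start, were given for 55 of the 68 genes. The GC box GGGCGG was found on either strand in 34 of these 55 promoters (61.8%), against 67.2% of 3430 promoters of genes on the array and 46.3% of 17492 promoters of protein-coding genes. CCAAT was found on either strand in 52.7% of the 55, against 38.3% of the genes of the array, and CGGAAG, the core of ETS factor sites, in 38.2% against 33.3%. TATAAA was rarer, in 2 of the 55 (3.64%), against 6.56% of the genes of the array. The median number of CG dinucleotides was 16 in the zinc finger protein genes and 22 in the genes of the array. A match describes letters in this window only. The promoters of the 4 genes below are shown because these genes had the smallest p of their family in at least 1 of the comparisons that follow, and GC boxes are in capitals. They run from CG-rich to CG-poor, with 36 CG dinucleotides for Zfp131, 20 for Zfp275, 10 for Zfp445 and 5 for Zfp652.
Zfp131: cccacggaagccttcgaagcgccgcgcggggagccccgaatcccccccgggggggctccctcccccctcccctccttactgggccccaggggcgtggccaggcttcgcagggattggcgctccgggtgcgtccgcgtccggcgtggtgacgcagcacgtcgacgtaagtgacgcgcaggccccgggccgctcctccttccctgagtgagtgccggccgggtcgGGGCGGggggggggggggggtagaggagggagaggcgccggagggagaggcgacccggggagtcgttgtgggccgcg
Zfp275: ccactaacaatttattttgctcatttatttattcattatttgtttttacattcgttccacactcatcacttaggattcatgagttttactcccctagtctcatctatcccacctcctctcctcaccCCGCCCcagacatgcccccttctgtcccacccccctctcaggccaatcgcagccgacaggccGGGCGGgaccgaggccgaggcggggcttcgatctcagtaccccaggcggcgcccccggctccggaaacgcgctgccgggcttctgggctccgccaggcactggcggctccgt
Zfp445: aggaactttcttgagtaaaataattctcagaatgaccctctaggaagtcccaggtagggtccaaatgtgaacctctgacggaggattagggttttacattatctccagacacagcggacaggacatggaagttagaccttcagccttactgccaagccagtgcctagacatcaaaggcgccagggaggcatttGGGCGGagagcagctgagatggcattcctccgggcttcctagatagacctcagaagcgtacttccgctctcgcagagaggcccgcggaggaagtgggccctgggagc
Zfp652: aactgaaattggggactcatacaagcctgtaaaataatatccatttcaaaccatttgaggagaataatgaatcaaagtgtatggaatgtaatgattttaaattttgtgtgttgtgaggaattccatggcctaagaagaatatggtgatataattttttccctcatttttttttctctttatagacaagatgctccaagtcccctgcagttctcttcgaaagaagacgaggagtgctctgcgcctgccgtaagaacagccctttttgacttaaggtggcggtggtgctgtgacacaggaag
They lie at chr13:119790683-119790982 on the minus strand (Zfp131), chrX:73342370-73342669 on the plus strand (Zfp275), chr9:122865957-122866256 on the minus strand (Zfp445) and chr11:95748817-95749116 on the plus strand (Zfp652). The GC box was found 1 time each in Zfp131 and Zfp445 and 2 times in Zfp275, and these letters were not in the window of Zfp652.

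The zinc finger protein genes scored from low to high across nearly the whole range of the filter. Their mean scores over all mice had a median of -0.159 with quartiles of -0.782 and 0.411, against a median of -0.0789 and quartiles of -0.568 and 0.465 for all genes with a single symbol. Of the 68 genes, 30 (44.1%) lay above the array mean, against 45.9% of the 4209. The highest mean scores were those of Zfp212 (1.76), Zfp410 (1.66), Zfp322a (1.49), Zfp804a (1.22), Zfp58 (0.912), Zfp354a (0.879), Zfp688 (0.775) and Zfp882 (0.616). Zfp410 is a highly selective activator of Chd4, a helicase of the NuRD repressor complex, and the human counterpart of Zfp804a has been linked to schizophrenia. Zfp58 belongs, with Zfp729a (0.268), to a cluster of KRAB genes known as regulators of sex-limited liver genes. The lowest were Zfp438 (-2.76), Zfp945 (-2.72), Zfp763 (-2.52), Zfp652 (-2.33), Zfp651 (-1.66), Zfp61 (-1.55), Zfp667 (-1.29) and Zfp800 (-1.25). A score is not corrected for clone length or labelling, so this is an order of signals.

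**Figure D1:**
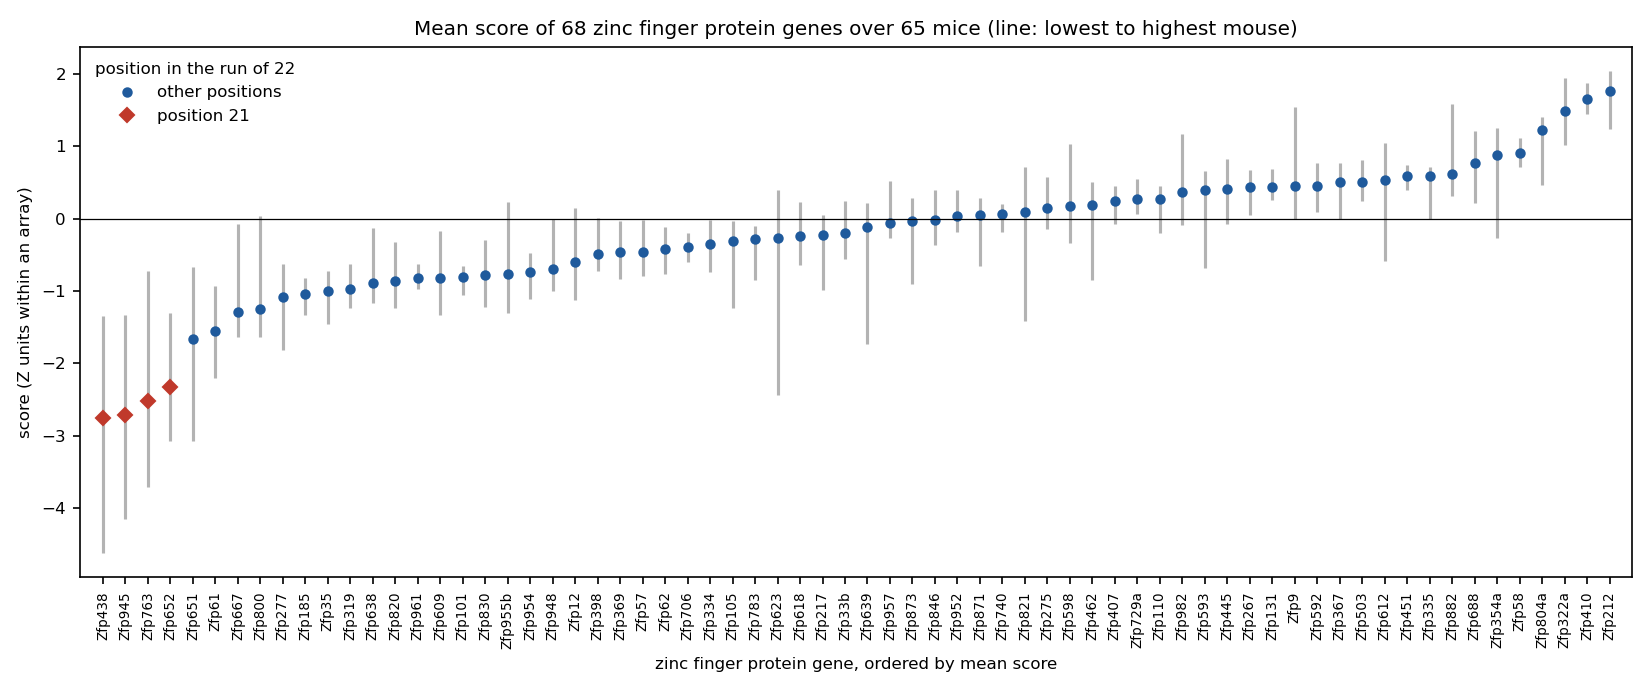
Mean score of each of the 68 genes over 65 mice in Z units (vertical axis), ordered along the horizontal axis, with a line from the lowest to the highest mouse. The 4 genes printed at position 21 (diamonds) are the 4 lowest, from -2.76 to -2.33.

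The level of a feature went with its place in the printing order. Feature numbers repeat in runs of 22, and the median mean score of all features at a position ranged from 0.677 at position 7 to -1.54 at position 21. Zfp438, Zfp945, Zfp763 and Zfp652 were the only genes of the family at position 21. With each array centred on the median of each position, their means were -1.23, -1.19, -0.991 and -0.80, and the median of the family was -0.281 with 36.8% of the genes above 0, against -0.0686 and 44.9% for all genes with a single symbol. Zfp212 (1.73), Zfp322a (1.65), Zfp688 (1.48) and Zfp410 (1.40) were among the high genes after centring as well.

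The 8 genes with 2 features gave a check of the annotation within the family. For Zfp277, which binds Polycomb proteins, the features averaged -0.761 ± 0.207 and -1.39 ± 0.212 (SD, n = 65) and their residuals correlated across 62 mice at r = 0.549 without arrays 31 to 33. The residuals of the 2 features of Zfp954 correlated at 0.352 and of Zfp592 at 0.285. The other 5 correlations were below 0, from -0.186 for Zfp110 to -0.404 for Zfp410, and that of Zfp110 was 0.179 with all 65 mice. The 2 features of Zfp410 averaged 0.648 ± 0.208 and 2.68 ± 0.0892, those of Zfp592 -0.65 ± 0.106 and 1.55 ± 0.162, and those of Zfp638 -0.0218 ± 0.145 and -1.75 ± 0.254. The name of a gene therefore rests on the clone printed at each place. The residuals were taken from group and sex means only, so the difference between the array sets remained in them. Between the second and first set the 2 features of Zfp410 differed by 0.388 and -0.0669, in opposite directions. Those of Zfp706, also with a correlation below 0, differed by -0.0168 and -0.0873, in the same direction. The part of the array set in these correlations was not tested. They are descriptions over features that share the filter and the array.

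**Figure D2:**
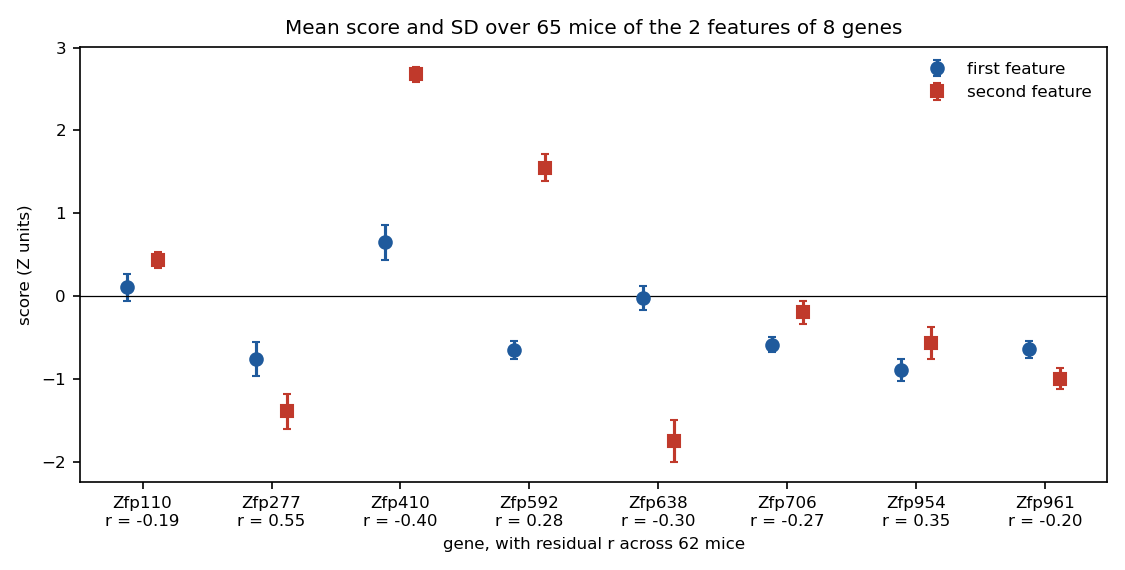
Mean score in Z units with the SD over 65 mice for the first (circle) and second (square) feature of 8 genes, with the correlation of their residuals across 62 mice under each name. The means of the 2 features differ by 2.20 for Zfp592, 2.03 for Zfp410 and 1.73 for Zfp638, and by 0.324 for Zfp110.

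The scores of the family varied little between the 7 groups. The range of the 7 group means had a median of 0.15 over the 68 genes, against 0.146 over all 7782 rows (genes and unnamed features), and ran from 0.034 for Zfp846 to 0.871 for Zfp438. The residual SD between mice was 0.155 for the median gene of the family and 0.146 for the median row, and 0.109 and 0.104 with the array set as a term and without arrays 31 to 33. The median score of the 68 genes within a mouse was -0.072 ± 0.0491 in juveniles and -0.0835 ± 0.0489, -0.107 ± 0.0448 and -0.124 ± 0.0738 in AL mice of 6, 16 and 24 months (SD, n = 10 each). It was -0.108 ± 0.0599 (n = 8), -0.112 ± 0.0706 (n = 10) and -0.117 ± 0.0312 (n = 7) in CR mice of these ages, and the mean ± SD of every group overlapped that of the others. In none of 14 comparisons did a gene of the family pass 0.05 in the fit of group and sex means by limma after Benjamini-Hochberg adjustment over the whole table, and the smallest adjusted p was 0.262.

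**Figure D3:**
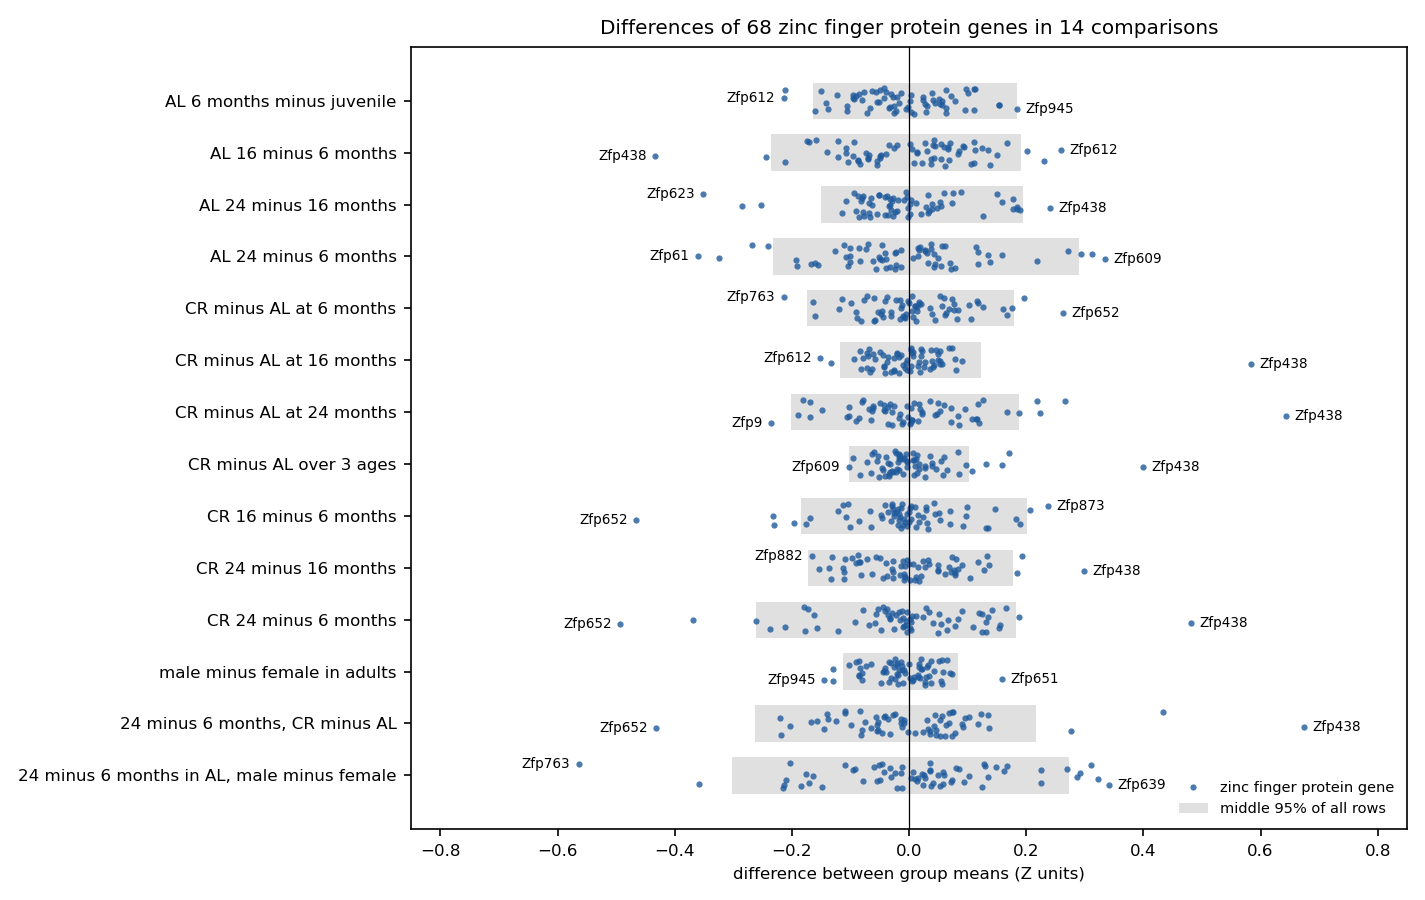
Differences between group means in Z units (horizontal axis) for each of 14 comparisons, one point for each of the 68 genes and a grey bar for the middle 95% of all 7782 rows, with the lowest and highest gene named. Between 61 and 65 of the 68 genes lie inside the bar in each comparison.

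Age on the AL diet was the first question. Between 6 months and the juvenile stage, 0 of the 68 genes were called and 0.141% of all rows were, and 2 genes had an unadjusted p under 0.05 against 2.71% of rows. Zfp334 scored between -0.41 and -0.02 with a median of -0.315 in AL mice of 6 months, against -0.59 to -0.23 with a median of -0.395 in juveniles. All 10 mice of 6 months lay above the juvenile mean, but the ranges overlapped, and the difference was 0.153 ± 0.0569 (SE, adjusted p = 0.984). For Zfp740 the difference was -0.077, for Zfp319 0.11 and for Zfp369 0.112, each with an adjusted p of 0.984. With arrays 31 to 33 left out, the differences of Zfp334, Zfp740, Zfp319 and Zfp369 became 0.125, -0.0565, 0.0795 and 0.0705, and with the array set as a term as well that of Zfp740 was -0.0405.

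From 6 to 16 months on the AL diet, 0 of the 68 genes were called, against 0.0257% of rows, while 8 had an unadjusted p under 0.05, a share of 11.8% against 13.3% of all rows. Zfp275, an X-linked gene, scored between -0.06 and 0.18 with a median of 0.05 in AL mice of 16 months, against 0.12 to 0.58 with a median of 0.205 in AL mice of 6 months. Every mouse of 16 months was below the mean of the mice of 6 months, and the highest value at 6 months was array 33. The difference was -0.17 ± 0.0511 (adjusted p = 0.262) and -0.134 without arrays 31 to 33. Within the first array set it was -0.134 (6 against 8 mice) and within the second -0.075 (4 against 1). Zfp593, whose yeast relative takes part in the export of ribosomal subunits, scored between 0.42 and 0.66 with a median of 0.515 at 16 months, against -0.68 to 0.54 with a median of 0.40 at 6 months. Its difference was 0.231 ± 0.0775 (adjusted p = 0.321), and 0.129 without arrays 31 to 33, of which array 33 gave the -0.68. Zfp367 differed by 0.167 and Zfp830, a splicing factor needed in the early embryo, by 0.202, with adjusted p of 0.297 and 0.338. With the array set as a term and arrays 31 to 33 left out, the differences of Zfp275 and Zfp367 were -0.111 and 0.0997.

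From 16 to 24 months on the AL diet 0 of 68 genes and 0 of 7782 rows (0%) were called, and 2 genes had an unadjusted p under 0.05, against 2% of rows. Zfp982 scored between 0.25 and 0.61 with a median of 0.475 at 24 months, against 0.02 to 0.46 with a median of 0.315 at 16 months (difference 0.15 ± 0.0743, adjusted p = 0.956). It was 0.152 within the first array set and 0.105 within the second. Zfp101 differed by -0.086, Zfp267 by -0.088 and Zfp618 by 0.177. None of the 4 was called, and the difference of Zfp618 was 0.0974 with the array set as a term and arrays 31 to 33 left out.

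From 6 to 24 months on the AL diet 0 of 68 genes were called, against 0.0643% of rows, and 7 had an unadjusted p under 0.05, against 13% of rows. Zfp618, which in human cells binds hydroxymethylated DNA together with UHRF2, scored between -0.45 and 0.23 with a median of -0.06 at 24 months, against -0.54 to 0.13 with a median of -0.435 at 6 months. The difference was 0.271 ± 0.102 (adjusted p = 0.336), but 0.095 within the first array set (4 against 8 mice) and -0.0383 within the second (6 against 1). Zfp612 differed by 0.312, but by -0.08 and -0.0917 within the array sets and by -0.0237 with the set as a term and arrays 31 to 33 left out, against 0.222 without these arrays alone. Zfp61 differed by -0.36 and by -0.317 and 0.118 within the sets, and by -0.159 with the set as a term. Zfp957 differed by -0.126, and by -0.0682 without array 33. With limma array weights, estimated by an iteration that stopped before full convergence, 17 of the 68 genes (and 22.2% of rows) passed the adjusted threshold in this comparison, Zfp609, Zfp61, Zfp612 and Zfp618 among them. With array weights and arrays 31 to 33 left out, 16 passed (21.1% of rows), and with the array set added as a term 0 passed.

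**Figure D4:**
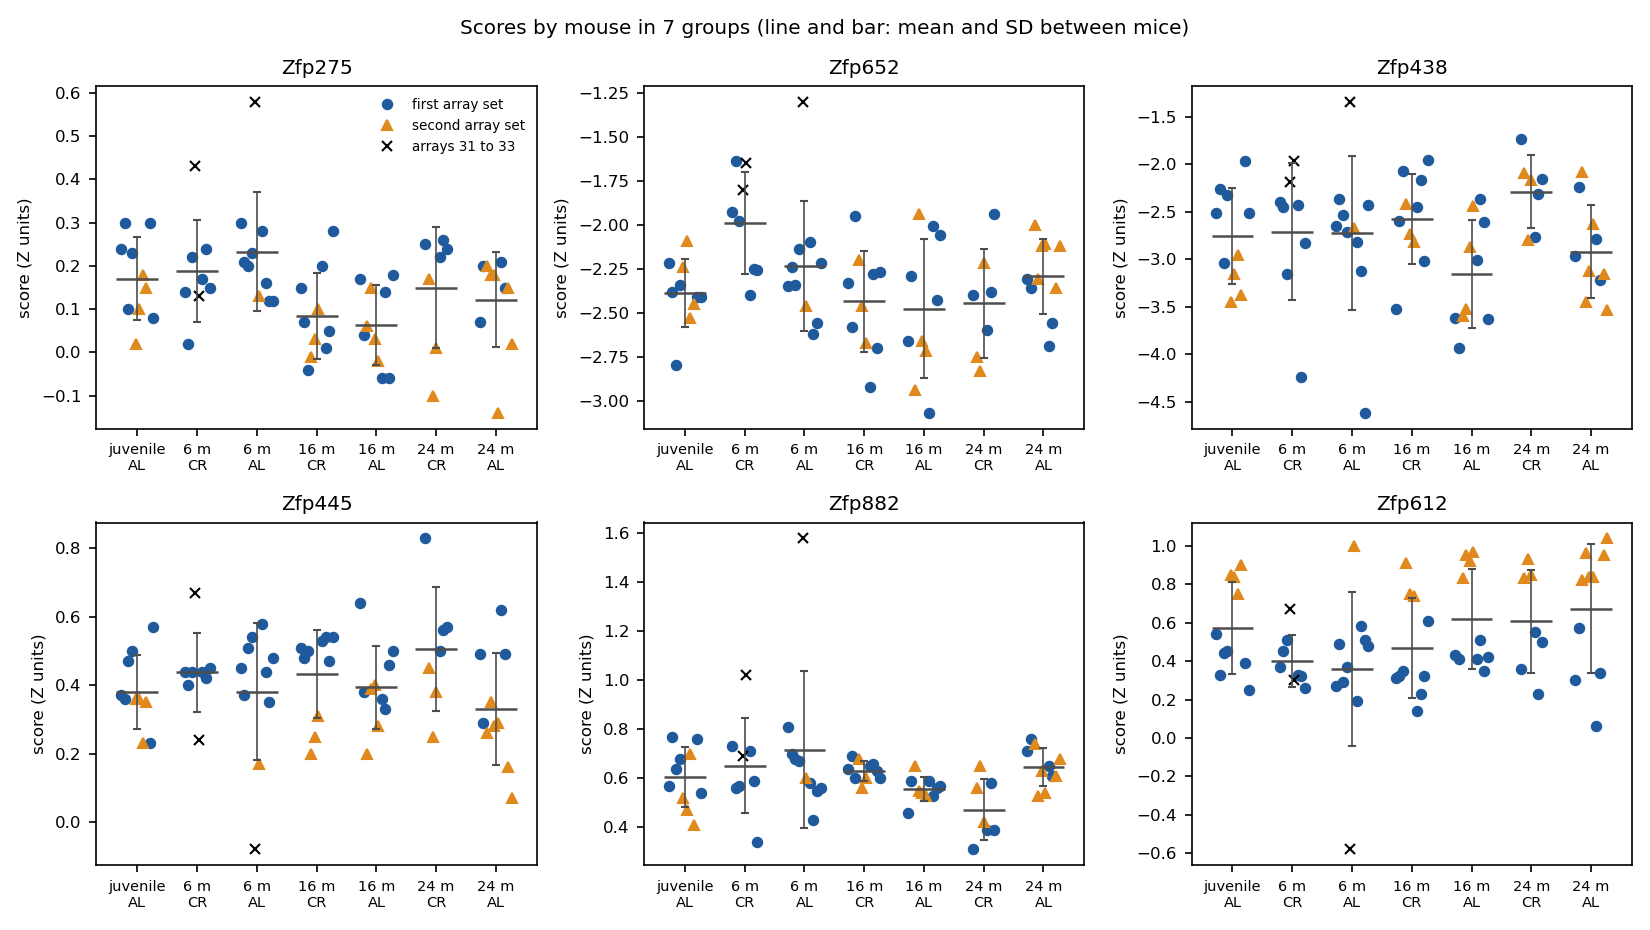
Scores in Z units (vertical axis) of 6 genes in each mouse by group (horizontal axis, CR left of AL at each age), with circles for the first array set, triangles for the second and crosses for arrays 31 to 33. Lines and bars are the mean and SD between mice. Zfp612 lies between 0.74 and 1.04 in the second set and between 0.06 and 0.61 in the first, and the ranges of Zfp438 in CR and AL mice overlap at 16 and 24 months.

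Caloric restriction was compared with the AL diet at each age. At 6 months 0 of 68 genes were called, against 0.0257% of rows, and 0 had an unadjusted p under 0.05, against 7.7% of rows. The 4 genes of smallest p were Zfp652 (0.263), Zfp954 (-0.119), Zfp322a (0.168) and Zfp212 (0.103). Zfp652, whose human counterpart is a repressor that binds CBFA2T3, scored between -2.40 and -1.64 with a median of -1.96 in CR mice, against -2.62 to -1.30 with a median of -2.29 in AL mice (SE 0.136, adjusted p = 0.649). Its mean score over all mice lay at percentile 1.77 of all rows, among the weakest signals. The study's selection asked for a mean score above 0, which Zfp652 did not reach. Without arrays 31 to 33 the difference of Zfp212 was 0.00225 and that of Zfp954 -0.0545. Leaving out array 31 alone gave -0.0612 for Zfp954, and leaving out array 33 alone gave 0.111 for Zfp322a.

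At 16 months 0 of 68 genes and 0 of all rows (0%) were called between CR and AL mice, and 1 gene had an unadjusted p under 0.05, against 0.797% of rows. This was Zfp438, which scored between -3.53 and -1.96 with a median of -2.53 in CR mice, against -3.94 to -2.37 with a median of -3.26 in AL mice. Of the CR mice, 9 of 10 lay above the AL mean, and the difference was 0.584 ± 0.265 (adjusted p = 1). It was 0.654 within the first array set and 0.451 within the second. Zfp438 had the lowest mean score of the family (-2.76, percentile 0.565 of all rows), also below the limit of 0 in the study's selection. Zfp367 (-0.083), Zfp503 (-0.071) and Zfp612 (-0.152) came next. Zfp503, also called Nolz1, is a transcriptional repressor that acts in striatal and motor neuron development.

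At 24 months 0 of 68 genes and 0 of all rows (0%) were called between CR and AL mice, and 6 genes had an unadjusted p under 0.05, against 7.35% of rows. Zfp445, a KRAB protein that keeps methylation at imprinted loci, scored between 0.25 and 0.83 with a median of 0.50 in CR mice, against 0.07 to 0.62 with a median of 0.29 in AL mice. The difference was 0.187 ± 0.0749 (adjusted p = 0.636), with 0.143 and 0.125 within the 2 array sets. Without CR replicate 1 of 24 months it was 0.128. Zfp882 scored between 0.31 and 0.65 with a median of 0.42 in CR mice, against 0.53 to 0.76 with a median of 0.64 in AL mice. The difference was -0.181 ± 0.079 (adjusted p = 0.636), with -0.265 and -0.0783 within the sets. Zfp438 scored between -2.80 and -1.73 with a median of -2.17 in CR mice, against -3.54 to -2.08 with a median of -3.05 in AL mice. The AL mean of Zfp438 was exceeded in 7 of 7 CR mice, and the difference was 0.643 ± 0.294 (adjusted p = 0.636). Zfp9 differed by -0.235 ± 0.11. With the array set as a term and without arrays 31 to 33, 11 of the 68 genes had an unadjusted p under 0.05, against 18.4% of rows, and 0 were called. The smallest adjusted p were then 0.0948 for Zfp882, 0.0991 for Zfp445 and 0.0994 for Zfp9.

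Over the 3 adult ages together 0 of 68 genes were called between CR and AL mice, against 0.0129% of rows, and 3 had an unadjusted p under 0.05, against 10.5% of rows. These were Zfp438 (0.399 ± 0.163, adjusted p = 0.432), Zfp445 (0.098 ± 0.0415, adjusted p = 0.445) and Zfp369 (0.083 ± 0.038, adjusted p = 0.46), followed by Zfp322a (0.108). Over the family, 29 differences were above 0 and 39 below, with a median of -0.00953. Of the 25 CR mice, 21 lay above the AL mean of Zfp438 and 20 above that of Zfp445. Without arrays 31 to 33 the differences of Zfp438, Zfp445, Zfp369 and Zfp322a were 0.37, 0.0719, 0.073 and 0.103, and with the array set added as a term they were 0.34, 0.0474, 0.0781 and 0.0665. Leaving out CR replicate 1 of 24 months alone gave 0.0783 for Zfp445 and 0.0625 for Zfp369. Zfp438 had the widest spread of the 68 genes, with an SD of 0.607 over all mice for a mean of -2.76, and the 95% interval of its difference at 24 months ran from 0.0537 to 1.23.

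Age under CR was compared in the same way. From 6 to 16 months 0 of 68 genes and 0 of all rows (0%) were called, and 9 genes had an unadjusted p under 0.05, a share of 13.2% against 6.87% of rows. Zfp652 scored between -2.92 and -1.95 with a median of -2.40 in CR mice of 16 months, against -2.40 to -1.64 with a median of -1.96 in CR mice of 6 months. Of the mice of 16 months, 9 of 10 lay below the mean of those of 6 months, and the difference was -0.466 ± 0.136 (adjusted p = 0.581). It was -0.392 without arrays 31 to 33 and -0.39 with the array set added as a term. Within the first set it was -0.356 (7 against 6 mice), and the second set held 0 CR mice of 6 months. Zfp740 (0.0983), Zfp873 (0.238) and Zfp217 (0.207) came next, and their differences became 0.0423, 0.05 and 0.0613 once arrays 31 to 33 were left out, so that arrays 31 and 32 carried most of each. With the array set as a term and these arrays left out, 4 genes had an unadjusted p under 0.05, against 3.7% of rows. Zfp217 is the mouse counterpart of a human oncogene whose protein recruits co-repressors.

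From 16 to 24 months under CR 0 of 68 genes and 0 of all rows (0%) were called, and 3 had an unadjusted p under 0.05, against 5.29% of rows. Zfp740 scored between -0.15 and 0.10 with a median of 0 at 24 months, against 0.03 to 0.20 with a median of 0.10 at 16 months (difference -0.11 ± 0.0422, adjusted p = 0.809). All 7 mice of 24 months lay below the mean of the mice of 16 months. In 1 fit, with both the array cycles as a block and the array set as a term and without arrays 31 to 33, Zfp740 was called (-0.126, adjusted p = 0.0474, with 0.758% of rows called). With the cycles alone its adjusted p was 0.633. Zfp58 (-0.0869), Zfp882 (-0.166) and Zfp369 (0.133) came next, and the difference of Zfp369 was 0.0718 without CR replicate 1 of 24 months, which scored -0.03. From 6 to 24 months under CR 0 of 68 genes were called, against 0.0257% of rows, and 4 had an unadjusted p under 0.05, against 8.75% of rows. Zfp652 differed by -0.493 ± 0.149 (adjusted p = 0.505), Zfp957 by -0.162, Zfp882 by -0.179 and Zfp322a by -0.212. Over the family, 31 differences were above 0 and 37 below. Without arrays 31 to 33 that of Zfp882 was -0.116, and with the array set added as a term that of Zfp322a was -0.135. Zfp652 scored between -2.83 and -1.94 at 24 months, with 6 of 7 mice below the mean of the mice of 6 months. Its difference was -0.419 without arrays 31 to 33, -0.416 with the array set added as a term and -0.253 within the first set (4 against 6 mice).

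The response to age was set against diet and sex. For the step from 6 to 24 months in CR minus AL mice 0 of 68 genes and 0 of all rows (0%) were called, and 1 gene had an unadjusted p under 0.05, against 1.54% of rows. This was Zfp652 at -0.432 ± 0.195 (adjusted p = 0.999), followed by Zfp438 at 0.674, Zfp334 at 0.137 and Zfp58 at -0.0832. Without CR replicate 7 of 6 months Zfp438 was at 0.354. With the array set as a term and arrays 31 to 33 left out, Zfp652 was at -0.462 and Zfp334 at 0.0891. For the same step in AL males minus AL females 0 of 68 genes and 0 of all rows (0%) were called and 0 had an unadjusted p under 0.05, against 1.17% of rows. The genes of smallest p were Zfp740 (0.148), Zfp638 (-0.215), Zfp639 (0.342) and Zfp593 (0.226). Without arrays 31 to 33 the last 3 were -0.0703, 0.0075 and 0.0215, and with the array set added as a term Zfp740 was at 0.0963.

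Between adult males and females 0 of 68 genes and 0 of all rows (0%) were called, and 3 genes had an unadjusted p under 0.05, against 3.51% of rows. Zfp131, a BTB zinc finger protein, scored between 0.33 and 0.69 with a median of 0.455 in 26 males, against 0.26 to 0.53 with a median of 0.42 in 29 females. Of the males, 19 of 26 lay above the female mean, and the difference was 0.0738 ± 0.0213 (adjusted p = 0.991), with 0.0655 and 0.021 within the array sets. Zfp651 differed by 0.158, Zfp503 by -0.0651 and Zfp35 by -0.084. For Zfp651 and Zfp35 the differences were 0.0808 and -0.0331 without arrays 31 to 33, and that of Zfp35 was 0.00328 when array weights were added. The X-linked genes of the family, Zfp185 and Zfp275, were not called either.

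The precision of these comparisons differed between genes, with residual SDs from 0.0717 for Zfp706 to 0.611 for Zfp438. The 95% interval of a difference reached 0.138 to either side for the median gene in the AL age comparisons, 0.153 between CR and AL mice at 24 months and 0.0846 between the sexes. In the AL step from 6 to 24 months the whole interval lay within 0.3 of 0 for 50 of the 68 genes. It did so for 61 genes between CR and AL mice over the 3 ages and for 63 genes between the sexes. The selection described for the study (a mean score above 0, a z-ratio of at least 1.5 in size and an unadjusted p under 0.05, without its closing test) took up to 3 of the 68 genes in a comparison. It took Zfp275 between 16 and 6 months on the AL diet (0.938% of rows taken), Zfp982 between 24 and 16 months on the AL diet (0.861%), Zfp882, Zfp9 and Zfp982 between CR and AL mice of 24 months (2%), and Zfp445 between CR and AL mice over the 3 ages (1.11%). Under CR it took Zfp322a and Zfp593 between 16 and 6 months (0.694%), Zfp882 between 24 and 16 months (2.49%) and Zfp322a between 24 and 6 months (3.39%), and 0 of the 68 between 6 months and juveniles (0.206%), between 24 and 6 months on the AL diet (1.75%), between CR and AL mice at 6 months (0.591%) and 16 months (0.989%) and between the sexes (0.463%). Changes within the intervals were not detectable with this number of arrays. Larger changes could also go uncalled, because the intervals are not adjusted for the number of rows and the calls are. Zfp652, for example, differed by -0.466 ± 0.136 between 16 and 6 months under CR with a limma adjusted p of 0.581.

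Some measured genes of the family were listed beforehand for known functions in nervous tissue or chromatin, and none of them was called in the reported fit. Zfp57, which protects methylation at imprinted loci, averaged -0.493 ± 0.207, -0.465 ± 0.234 and -0.432 ± 0.172 in AL mice of 6, 16 and 24 months (SD, n = 10 each). Between the second and first array set Zfp57 differed by 0.248, and the second set held 1, 4 and 6 of these mice. Zfp110, which binds the p75 neurotrophin receptor, and its relative Zfp369 averaged 0.269 and -0.46 over all mice. Zfp335, a subunit of histone methyltransferase complexes needed for neurogenesis, averaged 0.582 ± 0.0636 in AL mice of 24 months and 0.533 ± 0.192 in AL mice of 6 months (n = 10 each). Array 33 gave the lowest value at 6 months, which was 0. The other 9 mice of 6 months ran from 0.53 to 0.65 with a median of 0.61, against a median of 0.59 at 24 months. Zfp451, a SUMO ligase, averaged 0.624 ± 0.0759 in AL mice of 24 months and 0.582 ± 0.0601 in AL mice of 6 months. It had one of the smallest spreads, with an SD of 0.0748 over all 65 mice. Zfp462, a large chromatin protein, averaged 0.195 over all mice, and Zfp592 of the Zmynd8 complex 0.451. Zfp592 differed by 0.119 ± 0.058 between CR and AL mice of 24 months (adjusted p = 0.636). Zfp638, a nuclear RNA-binding protein, averaged -0.886 over its 2 features.

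The partners through which KRAB zinc finger proteins act were read from the same filters. Of 34 listed co-repressor genes 16 were measured, and 0 were called in any of the 14 comparisons, in either direction. Setdb1, the methyltransferase of the complex, had the smallest p and differed by 0.294 ± 0.11 between 24 and 6 months on the AL diet (adjusted p = 0.335), by 0.30 without arrays 31 to 33 and by 0.0851 with the array set added as a term. The histone deacetylase gene Hdac2 differed by -0.0934 ± 0.0357 between 24 and 16 months under CR (adjusted p = 0.809), and Hdac1 by 0.103 ± 0.0467 between 16 and 6 months on the AL diet (adjusted p = 0.358). The difference of Hdac1 was 0.0468 without arrays 31 to 33 and 0.0598 with the array set added as a term. Median differences of the 16 genes lay between -0.0169 and 0.0271, as against -0.0225 and 0.023 for the 68 zinc finger protein genes.

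The spread between mice was compared once the array set and arrays 31 to 33 were taken out, and differences in spread between groups were not tested. The root mean square residual of the median gene of the family was 0.0915 in juveniles, 0.0776 in CR and 0.0904 in AL mice of 6 months, 0.0865 and 0.0889 in CR and AL mice of 16 months, and 0.0937 and 0.102 in CR and AL mice of 24 months. For the median row it was 0.0906 in juveniles, 0.0727 and 0.0803 in CR and AL mice of 6 months, 0.0819 and 0.0804 at 16 months, and 0.0933 and 0.0966 at 24 months. In both, the CR mice of 6 months had the lowest value and the AL mice of 24 months the highest. Among the genes, residuals across these 62 mice had a median pairwise correlation of 0.0114 over 2278 pairs, with 66 pairs above 0.5 and 25 below -0.5. The closest pair was Zfp623 and Zfp821 (r = 0.91), both at position 12, and after it Zfp820 and Zfp982 (0.718), Zfp334 and Zfp598 (0.716) and Zfp9 and Zfp982 (0.70). These correlations are descriptions over mice that share arrays and places on the filter.

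The genes of the family also differed between the 2 array sets. The sets were defined on these scores, so the following counts describe them and are no independent test. In the fit with the set as a term and without arrays 31 to 33, 32 of the 68 genes passed an adjusted p of 0.05, 16 higher and 16 lower in the second set, against 47% of all rows. Zfp955b averaged -0.266 in the second set (21 arrays), between -0.39 and -0.10, with all 41 arrays of the first set between -1.30 and -0.73. The ranges of the sets did not overlap for Zfp955b, Zfp609, Zfp612, Zfp33b and Zfp618. The share of all rows without overlap is not given here, so these genes are not shown to be unusual among the rows. Zfp609, a partner of the cohesin loader Nipbl in neural progenitors, differed by 0.783, Zfp955b by 0.79, Zfp12 by 0.746 and Zfp598, a ubiquitin ligase that senses collided ribosomes, by 0.511. Zfp623 (-0.594), Zfp61 (-0.584) and Zfp821 (-0.518) had the largest differences the other way. In all, 10 of the 68 genes differed by more than 0.4 in size, against 7.62% of all rows.

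These differences went with the place of a feature on the filter. By their numbers, the features divide into 16 blocks of 24 rows by 22 positions, a layout read from the numbers and the scores alone. All 6 zinc finger features that were higher by over 0.4 in the second set (Zfp955b, Zfp609, Zfp12, Zfp598, Zfp612 and Zfp33b) lay at odd positions in rows 1 to 7 of a block, where 15 of the 76 features lie. Of the 4 that were lower by over 0.4, 3 (Zfp623, Zfp61 and Zfp821) lay at even positions in rows 19 to 24, where 7 of the 76 lie, and the fourth, Zfp945, at position 21. Over all 8448 features, 463 were higher by over 0.4, all of them at odd positions and 462 of them in rows 1 to 7. The row within a block and the odd or even position together accounted for 65.3% of the variance of the difference over all features.

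**Figure D5:**
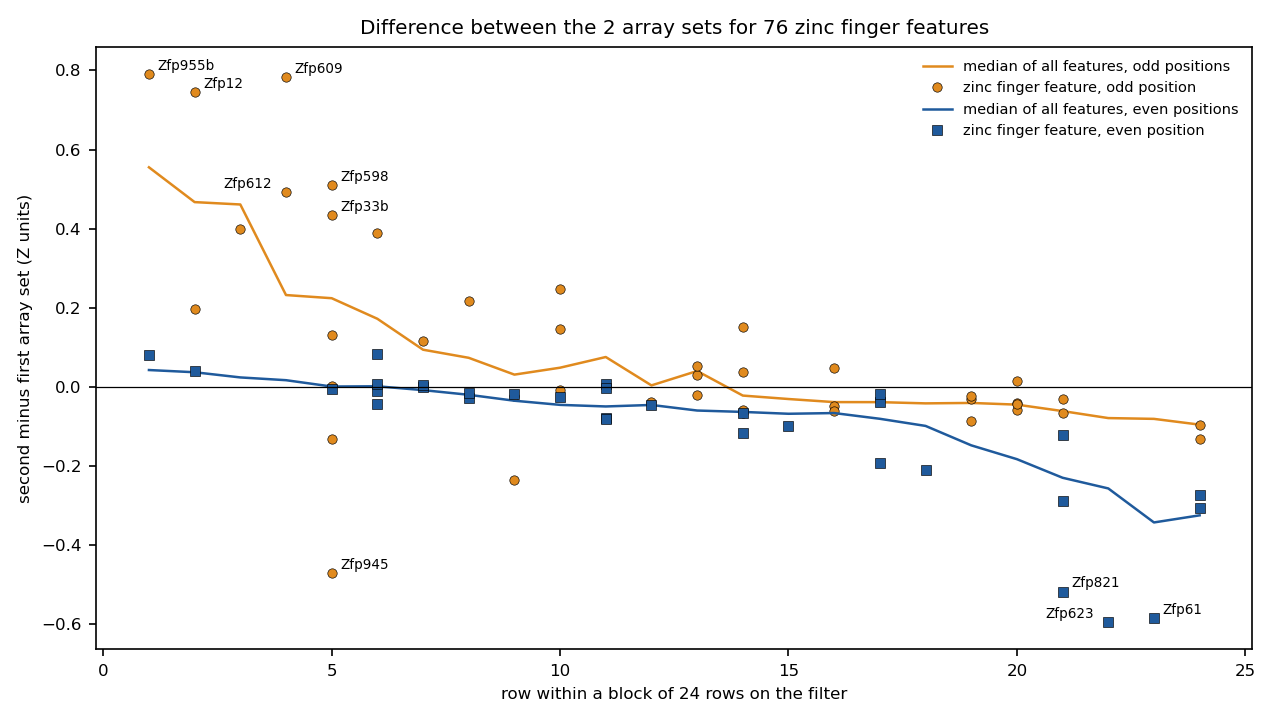
Difference between the second (21 arrays) and the first array set (41 arrays) in Z units (vertical axis) for the 76 zinc finger features by row within a block of 24 rows (horizontal axis), with circles for odd and squares for even positions. Lines are medians of all features, and the features above 0.4 lie at odd positions in rows 1 to 7.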

How the data were processed

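The authors deposited a Z score for each feature, computed within its array. By the study's methods and the labels, total RNA was labelled with radioactive dCTP by reverse transcription, hybridized to a cDNA filter (NIA mouse, filter B) and scanned, and spot intensities were extracted with ArrayPro. The log base and the treatment of background are not given in the sources used here, so no folds are printed. The values ran from -8.58 to 3.32 over 8448 features and carry no count or depth, so that the number of arrays limits the precision. The design text gives 67 mice, of which 65 were analysed here, and each was a separate animal. The description label of 1 AL mouse of 24 months differed from its title, which was followed.

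Features were named through the platform annotation, and those of one gene were averaged, which left 7782 rows. All rows were tested with limma 3.58.1 in R 4.3.3 in one fit of group and sex means over all 65 arrays with both sexes weighted equally, so that a difference can depart from that of plain group means, and p was adjusted by Benjamini-Hochberg over all rows. The array sets came from the sign of the first principal component. Named genes were the 4 of smallest p in each comparison, the 8 of highest and lowest mean score, genes with known roles, and genes with 2 features, and a rule on printed proteins could not be applied because no protein sequences were used here. The genes and lists were chosen with earlier results of these data known. Columns of the authors' own comparisons were not part of the file. The fits were tested on simulated data. Alternatives were the array set as a term, leaving out arrays or single mice, other scalings and centrings, array weights, cycles of the array numbers as a block (chosen after seeing the data), single features, a filter on low scores and the selection described for the study, without its closing test.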

Additional observations from a re-analysis of the deposited data

Results flagged for a closer look

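A mouse stood far from the rest of its group, by Dixon's ratio, in 9 of 72 sets of a named gene and a group. The sets share arrays, and many of the genes were named by small p in these data. The rate of about 1 in 20 among independent sets is therefore no yardstick for this count. Array 33, the AL male that is replicate 5 at 6 months, accounted for 6 of the 9 sets. Its scores were 1.24 for Zfp212 (nearest mouse 1.58), 0.58 for Zfp275 (0.30), -0.01 for Zfp367 (0.36), -0.68 for Zfp593 (0.26), -0.58 for Zfp612 (0.19) and -1.30 for Zfp652 (-2.10). Array 31, a CR mouse of 6 months, scored -1.11 for Zfp954 (nearest -0.815). Elsewhere, Zfp217 scored 0.05 in CR replicate 10 of 16 months (nearest -0.14), and Zfp369 scored -0.03 in CR replicate 1 of 24 months (nearest -0.33). For differences named above that moved by over 1.5 times without arrays 31 to 33, both values are given there.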

How the results depend on the processing

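In every comparison between groups 0 of the 68 genes were called in the reported fit and in every fit that left out 1 mouse (lowest 0, highest 0, smallest adjusted p 0.0958). The count was 0 as well with the array set as a term and arrays 31 to 33 left out, without arrays 31 to 33, with centring on positions or block areas (areas chosen after seeing the data), with median and MAD scaling, quantile normalization, rows of mean score above 0, single features and without the mouse of the differing label. Exceptions were array weights in AL mice between 24 and 6 months (17 genes, 16 without arrays 31 to 33, and 0 with these left out and the array set added) and the study's selection. That selection took 1 gene each in AL 16 minus 6, AL 24 minus 16, CR minus AL over 3 ages, CR 24 minus 16 and CR 24 minus 6 months, 2 in CR 16 minus 6 months and 3 in CR minus AL at 24 months. The count of 32 genes between the array sets ran from 30 to 33 without 1 mouse. The median level of -0.159 was -0.281 after centring on positions. Directions turned for 3 named differences. Zfp612 between 24 and 6 months on the AL diet was -0.0237 with the array set, -0.0304 with block areas and the set, -0.0147 with weights and the set, and -0.0258 with cycles and the set (all without arrays 31 to 33). Zfp212 between CR and AL mice of 6 months was -0.00158 with the set, -0.0131 with weights, -0.014 with weights and without arrays 31 to 33, and -0.00544 with weights and the set. Zfp35 between males and females was 0.00328 with weights and without arrays 31 to 33. No paired analysis was possible because the labels give no replicate numbers that the groups share. With the 5 cycles of array numbers as a block, chosen after seeing the data, 0 genes were called in every comparison, and with the array set added and arrays 31 to 33 left out 1 was, Zfp740 between 24 and 16 months under CR.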
